A study of Mus musculus with 4 samples.

Results

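The insulin-like growth factor (IGF) genes examined here were Igf1, the receptor genes Igf1r and Insr, and the IGF-binding protein genes Igfbp2, Igfbp3, Igfbp4, Igfbp5, Igfbp6 and Igfbp7. They were chosen by gene name, as the rows carrying these names in both deposited tables, and all 9 were found among the 19968 genes that the tables share. Of these genes 16725 passed a filter on low counts, and the 9 IGF genes were among them. Read counts came from RNA-seq of the cerebral cortex at embryonic day 15 in C57BL/6 mice. The embryos carried either a conditional knockout of Prdm16 (genotype Prdm16cKO, here cKO) or, as controls, floxed alleles (genotype Prdm16fl/fl, here floxed). Prdm16 encodes a zinc-finger regulator of transcription, and the series concerns how it acts on signals between neurons and blood vessels in brain development. The sources used here do not name the Cre driver or the deleted exon, and the series' design text calls the tissue telencephalic and the libraries triplicates. The data hold 3 libraries, named cKO 1, cKO 2 and floxed here, with numbers that pair nothing. The labels list 2 samples per group, 1 of each with the unexplained word Blood in its title, and do not show which sample gave which library; the other floxed sample was not analysed here. Each floxed value is therefore that of 1 library, and the spread of the 2 cKO libraries, which may be technical, is the only replicate error.

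IGF1 is a secreted growth factor related to insulin. It binds the IGF1 receptor, a tyrosine kinase that passes the signal through insulin receptor substrate proteins to the PI3K and AKT kinases and through SHC and RAS to the MAP kinases, and it binds the insulin receptor more weakly. IGF-binding proteins hold IGFs outside the cell, where they can keep them from the receptor or, after cleavage by proteases, release them. In the developing brain this system promotes growth of progenitors and neurons, and blood vessels, meninges and choroid plexus are known sources of its ligands and binding proteins.

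The libraries held 19518174 (cKO 1), 18581791 (cKO 2) and 17841685 (floxed) counts, and levels are given as CPM, counts scaled to these totals per 1e+06. The limit that a count of 0 allows, 3 counts, stood for 0.154 CPM in cKO 1 and 0.161 CPM in cKO 2, against 0.168 CPM in floxed. Prdm16 had 34.6 CPM in cKO 1 and 24.1 CPM in cKO 2, against 30.2 CPM in floxed. The value of cKO 1 goes against its label; deletion of part of a gene can leave reads on its other exons. Every direction given here is therefore that of a library labelled cKO. Library cKO 2 stood apart from the others in markers of cell types at the surface and in the vessels of the brain. The summed level of 19 genes of meninges and fibroblasts was 891 CPM in cKO 1 and 51.2 CPM in cKO 2, against 564 CPM in floxed. Genes of cortical neurons, the tissue named in the labels, summed to 8963 and 9051 CPM in the cKO libraries and to 9187 CPM in floxed.

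Most IGF genes lay on opposite sides of the floxed library in the libraries labelled cKO. Of the 9 genes, 6 lay above floxed in cKO 1 but below it in cKO 2, a pattern of 24.7% of all genes tested. Igfbp3 and Igfbp5 were higher in both, where 27.7% of all genes were, and Igf1r was lower in both, where 31.8% were. The pattern that none of the 9 showed, lower in cKO 1 and higher in cKO 2, was that of 15.8% of all genes. The median log2 ratio of the 9 genes to floxed was 0.19 in cKO 1 and -0.18 in cKO 2, beside medians over all genes of 0.01 and -0.04. None of the 9 was called by edgeR's quasi-likelihood test of cKO against floxed at a Benjamini-Hochberg adjusted p under 0.05 (each adjusted p = 0.9999), a test that called 1 of 16725 genes, or 0.00598%. At an unadjusted p under 0.05 the number was 0 of 9, against 1.53% of all genes, and DESeq2 called 0 of the 9 too. The smallest unadjusted edgeR p among them was 0.186, for Igfbp3.

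Igf1, the ligand (ENSMUSG00000020053, GRCm38 chromosome 10, 87858265 to 87937042, plus strand), had 149 counts in cKO 1 and 46 in cKO 2, against 76 in floxed. These were 7.63 and 2.48 CPM in the cKO libraries, against 4.26 CPM in floxed. The floxed value lay between the cKO values, so the groups overlapped. In cKO 1 the level was 1.79 times that of floxed, with an exact 95% interval for counting error of 1.35 to 2.39. In cKO 2 it was 1.72-fold lower than in floxed, a ratio of 0.581 with an interval of 0.394 to 0.849. The cKO libraries thus differed from each other by 3.08-fold (interval 2.202 to 4.39), more than either differed from floxed. The cKO libraries averaged 5.05 ± 3.65 CPM (SD, n = 2). The log2 fold of cKO over floxed fitted by edgeR was 0.25 (SE 0.63). In bulk tissue, fewer cells of a type and less RNA per cell cannot be told apart, here and for every gene below.

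**Figure D1:**
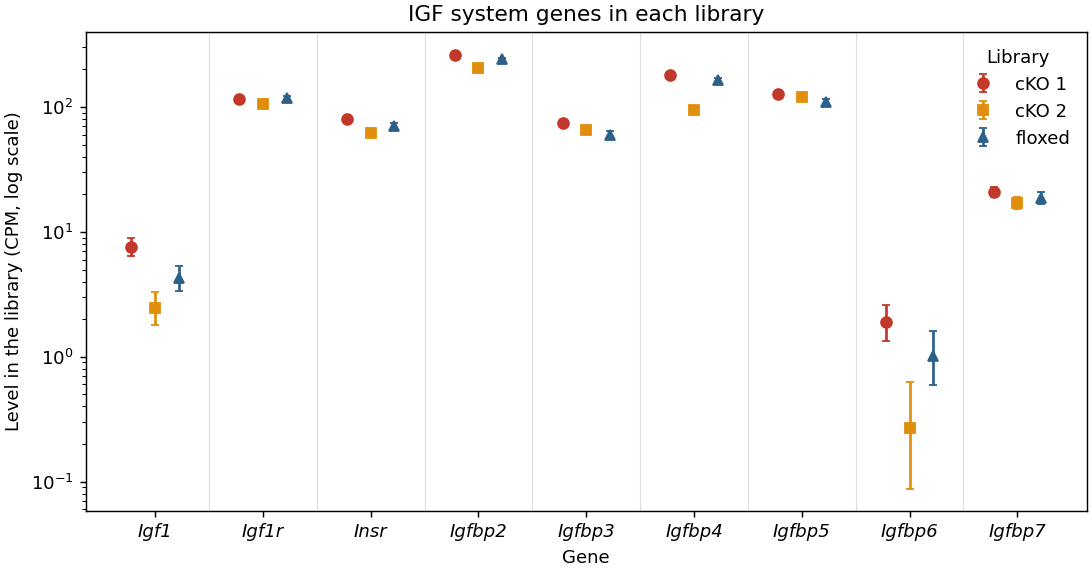
Level of each gene in CPM on a log axis in the libraries cKO 1, cKO 2 and floxed, 1 point per library, with exact 95% Poisson intervals for counting error. Igf1 and Igfbp6 stand lowest, and Igf1, Igfbp4 and Igfbp6 show the widest gaps between the cKO libraries.

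The receptor genes varied far less. Igf1r (ENSMUSG00000005533, chromosome 7, 67952827 to 68233668, plus strand), the main receptor of IGF1, had 117 CPM in cKO 1 and 107 CPM in cKO 2, against 118 CPM in floxed. Both cKO values lay below that of floxed, and in cKO 1 the difference was within counting error (ratio 0.988, interval 0.931 to 1.05). In cKO 2 the ratio was 0.902 (0.848 to 0.960). The fitted log2 fold of Igf1r was -0.08 (SE 0.14).

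Insr (ENSMUSG00000005534, chromosome 8, 3122061 to 3279617, minus strand), the insulin receptor, had 80.7 CPM in cKO 1 and 62.5 CPM in cKO 2, against 70.7 CPM in floxed. The floxed value again lay between the cKO values. The ratio to floxed was 1.14 (1.06 to 1.23) in cKO 1 and 0.884 (0.816 to 0.958) in cKO 2, and the fitted log2 fold was 0.02 (SE 0.18). Per kilobase of exon, Igf1r stood at 1.18 times the level of Insr in cKO 1 and 1.40 times in cKO 2, against 1.37 times in floxed.

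Igfbp3 and Igfbp5 were the only genes of the 9 with more CPM in both cKO libraries than in floxed. Igfbp3 (ENSMUSG00000020427, chromosome 11, 7206086 to 7213923, minus strand) encodes the main IGF carrier of blood plasma. It had 74.4 CPM in cKO 1 and 66.0 CPM in cKO 2, against 60.2 CPM in floxed. Its ratio to floxed was 1.24 (1.14 to 1.34) in cKO 1 and 1.10 (1.01 to 1.19) in cKO 2. With a cKO mean of 70.2 ± 5.99 CPM (SD, n = 2), the fitted log2 fold was 0.22 (SE 0.15).

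Igfbp5 (ENSMUSG00000026185, chromosome 1, 72857932 to 72874884, minus strand) encodes a binding protein that attaches to the extracellular matrix. It had 126 CPM in cKO 1 and 119 CPM in cKO 2, against 110.4 CPM in floxed. The ratios to floxed were 1.15 (1.08 to 1.22) in cKO 1 and 1.08 (1.02 to 1.15) in cKO 2, and the fitted log2 fold was 0.15 (SE 0.14). For both genes the intervals lay above 1 in each cKO library, as they did for 5.16% of all genes tested. Neither difference passed the test between the groups.

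Igfbp4 (ENSMUSG00000017493, chromosome 11, 99041244 to 99054392, plus strand), which encodes a binding protein that restrains IGF action until the protease PAPP-A cuts it, was the abundant gene with the widest split. It had 3520 counts in cKO 1 and 1758 in cKO 2, against 2918 in floxed, or 180.3 and 94.6 CPM in the cKO libraries against 164 CPM in floxed. Library cKO 2 was far below the other libraries, which lay close together. The ratio to floxed was 1.10 (1.05 to 1.16) in cKO 1 and 0.579 (0.545 to 0.614) in cKO 2, and the fitted log2 fold was -0.25 (SE 0.31).

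Igfbp6 (ENSMUSG00000023046, chromosome 15, 102144362 to 102149511, plus strand), whose product prefers IGF2 to IGF1, was the rarest of the 9 in CPM. It had 37 counts in cKO 1 and 5 in cKO 2, against 18 in floxed, or 1.90 and 0.269 CPM in the cKO libraries against 1.01 CPM in floxed. The ratio to floxed was 1.88 (1.04 to 3.51) in cKO 1 and 0.267 (0.0774 to 0.745) in cKO 2. These wide intervals rest on few reads. The cKO libraries differed by 7.04-fold (2.76 to 23.0), the largest such ratio among the 9 genes. In the authors' deposited table for cKO 2, Igfbp6 was the only gene of the 9 marked significant (log2 fold -1.91, adjusted p = 0.0117), and in that for cKO 1 no gene of the 9 was. Smaller adjusted p-values stood unmarked in the authors' deposited table for cKO 2, such as 1.8e-73 for Igfbp4 (log2 fold -0.79), 1.7e-12 for Igfbp2 (-0.24) and 0.00965 for Igf1 (-0.78). Both tables compare 1 library with 1 library.

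Igfbp2 and Igfbp7 split by less. Igfbp2 (ENSMUSG00000039323, chromosome 1, 72824503 to 72852474, plus strand), a binding protein of fetal tissues and cerebrospinal fluid, had 259 CPM in cKO 1 and 205 CPM in cKO 2, against 241 CPM in floxed. The ratio to floxed was 1.07 (1.03 to 1.12) in cKO 1 and 0.847 (0.811 to 0.885) in cKO 2, and the fitted log2 fold was -0.06 (SE 0.17). Igfbp7 (ENSMUSG00000036256, chromosome 5, 77349240 to 77408041, minus strand), a relative with weak IGF binding that is made by vessel cells, had 20.9 CPM in cKO 1 and 17.01 CPM in cKO 2, against 18.8 CPM in floxed. Both ratios were within counting error, at 1.11 (0.959 to 1.29) and 0.906 (0.774 to 1.06), and the fitted log2 fold was 0.01 (SE 0.24). Igfbp7 shares 7.03% of its exon bases with Polr2b on the opposite strand, and the library kit does not mark strand, so reads there cannot be assigned. Igfbp2 and Igfbp5 lie side by side on chromosome 1 in opposite orientation, and the neighbours went in different directions in cKO 2, with log2 ratios of -0.24 and 0.11.

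**Figure D2:**
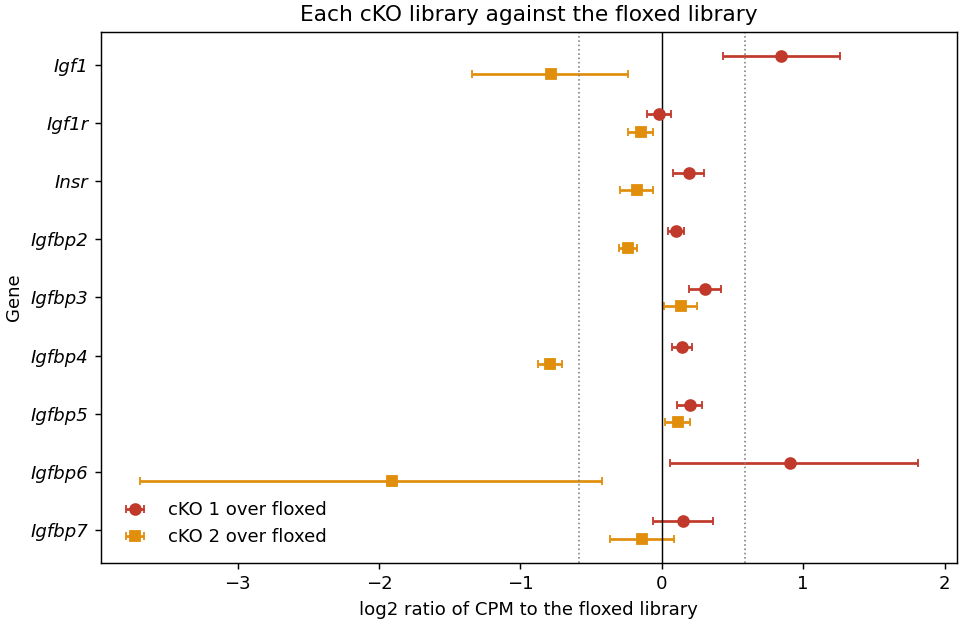
log2 ratio of CPM in cKO 1 and in cKO 2 to the floxed library for each gene, with exact 95% intervals for counting error; dotted lines mark 1.5-fold and both ratios share the floxed library. Igfbp3 and Igfbp5 lie right of 0 in both, and Igf1, Igfbp4 and Igfbp6 in cKO 2 lie beyond 1.5-fold on the left.

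By size, 2 of the 9 genes, Igf1 and Igfbp6, were over 1.5-fold higher than floxed in cKO 1, a size and direction reached by 7.15% of all genes, and 0 were over 1.5-fold lower, where 5.18% of all genes were. In cKO 2, Igf1, Igfbp4 and Igfbp6 were over 1.5-fold lower than floxed, as were 14.0% of all genes, and 0 were over 1.5-fold higher, against 4.83%. The same 3 genes were over 1.5-fold higher in cKO 1 than in cKO 2, as were 14.8% of all genes, while 0 were lower by as much, against 4.62%. By counting error, 7 genes had intervals above 1 in cKO 1 (17.8% of all genes). In cKO 2 the intervals of 2 genes lay above 1 (16.1%) and those of 6 below 1 (24.5%), and no gene had both intervals below 1, as 7.52% of all genes did. A set of 5 genes (Igf1, Insr, Igfbp2, Igfbp4 and Igfbp6) were above floxed in cKO 1 and below it in cKO 2 with both intervals clear of 1, a pattern of 3.67% of all genes. All 9 genes were higher in cKO 1 than in cKO 2, with intervals above 1, as were 27.3% of all genes. For Igf1r (1.09, interval 1.03 to 1.16) and Igfbp5 (1.06, 1.001 to 1.12) this rests on scaling to library totals: with the TMM factors of edgeR, 7 of 9 intervals lay above 1, against 21.8% of all genes. An interval narrows as counts grow, so abundant genes such as Igf1r and Igfbp5 leave 1 more readily than the average gene does. Igf1 and Igfbp6, with means of 4.79 and 1.06 CPM over the 3 libraries, are not abundant in this sense.

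The promoters of the pair that was higher in both cKO libraries and of the binding protein genes with the widest split are shown to let their sequences be compared. Each is the stretch of 250 bases before the RefSeq start, from the GRCm38.p6 table, read on the strand of the gene. A promoter was found for 8 of the 9 genes; that of Igf1 lies within exons of its other transcripts and is not shown. Capitals mark matches on either strand to a motif. The motif of the TATA box was searched as TATAAA. That of the GC box was searched as GGGCGG, and that of the CCAAT box by its own letters; no matches overlap in these windows.
Igfbp3 (chr11:7213924-7214173, minus strand): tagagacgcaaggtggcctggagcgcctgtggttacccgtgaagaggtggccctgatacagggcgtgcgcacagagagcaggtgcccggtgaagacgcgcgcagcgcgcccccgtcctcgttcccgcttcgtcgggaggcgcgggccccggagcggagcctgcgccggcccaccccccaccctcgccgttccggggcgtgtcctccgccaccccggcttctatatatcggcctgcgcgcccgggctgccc
Igfbp5 (chr1:72874866-72875115, minus strand): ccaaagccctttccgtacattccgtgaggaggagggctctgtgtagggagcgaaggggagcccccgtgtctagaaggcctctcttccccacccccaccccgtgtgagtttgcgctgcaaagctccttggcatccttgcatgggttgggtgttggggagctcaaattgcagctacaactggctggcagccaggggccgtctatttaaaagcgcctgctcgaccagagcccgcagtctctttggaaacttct
Igfbp4 (chr11:99040994-99041243, plus strand): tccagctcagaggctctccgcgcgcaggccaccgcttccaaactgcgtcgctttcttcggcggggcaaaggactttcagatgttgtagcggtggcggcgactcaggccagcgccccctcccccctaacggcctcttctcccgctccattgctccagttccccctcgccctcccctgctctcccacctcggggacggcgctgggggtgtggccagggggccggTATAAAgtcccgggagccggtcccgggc
Igfbp6 (chr15:102143936-102144185, plus strand): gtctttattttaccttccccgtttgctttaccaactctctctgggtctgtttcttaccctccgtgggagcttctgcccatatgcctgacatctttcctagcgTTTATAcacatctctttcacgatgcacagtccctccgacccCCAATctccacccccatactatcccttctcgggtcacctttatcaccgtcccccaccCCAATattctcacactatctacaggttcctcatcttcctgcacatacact

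Of the 4 windows shown, those of Igfbp4 and Igfbp6 hold TATAAA, Igfbp4 with its first base 28 bases before the RefSeq start and Igfbp6 on the opposite strand 148 bases before it. The RefSeq start of Igfbp6 lies before the gene start given above (window end 102144185, gene start 102144362), as does that of Igf1r. Of the Igfbp5 window, 19 bases lie in annotated exons of the gene. The motif is in 12.4% of 32841 RefSeq promoters of this length, and in none of those found for the other split genes, Igf1, Igfbp2 and Igfbp7. The window of Igfbp6 also holds 2 copies of CCAAT, a motif of 33.9% of promoters. Those of Igfbp3 and Igfbp5 hold none of the 3 motifs, which says only that these letters are not in the window. GGGCGG, found in 32.7% of promoters, was absent from all 4 windows, and occurred 4 times before the start of Igfbp7, 3 times before the first start of Igfbp2 and 2 times before that of Igf1r. The dinucleotide CG stood 32 times in the Igfbp3 window, 22 times in that of Igfbp4, 10 times in that of Igfbp5 and 7 times in that of Igfbp6, beside a median of 6 over all promoters. Matches are descriptions of sequence and were not tied to the levels by any test.

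Set against each other per kilobase of exon, which allows levels of different genes to be compared, Igfbp2 stood first and Igf1 and Igfbp6 last in every library. Igfbp2 had 140.1 and 111 CPM per kilobase in cKO 1 and cKO 2, against 131 in floxed. In floxed it was followed by Igfbp4 (37.0), Igfbp3 (19.2), Igfbp5 (18.4) and Igfbp7 (15.5), and Igf1r (7.04) and Insr (5.15) came before Igfbp6 (0.907) and Igf1 (0.430). In cKO 2, Igfbp4 (21.4), Igfbp3 (21.1) and Igfbp5 (19.9) lay close together, and Igfbp6 (0.242) and Igf1 (0.24995) were nearly level. There, with the length of the longest transcript in place of all exons, Igfbp3 (27.3) came before Igfbp4 (24.7). Igfbp2 made up 57.2% and 59.1% of the summed binding protein level per kilobase in cKO 1 and cKO 2, against 58.9% in floxed. The share of Igfbp4 was 16.7% in cKO 1 and 11.4% in cKO 2, against 16.7% in floxed. The binding proteins together stood at 317 times the level of Igf1 in cKO 1 and 749.7 times in cKO 2, against 516 times in floxed. With the length of the longest transcript these values were 292 and 691, against 475. The binding protein sum itself was 245 and 187 CPM per kilobase of exon in the cKO libraries, against 222 in floxed. The ratios rest on few counts of Igf1, 149 and 46 in the cKO libraries and 76 in floxed.

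**Figure D3:**
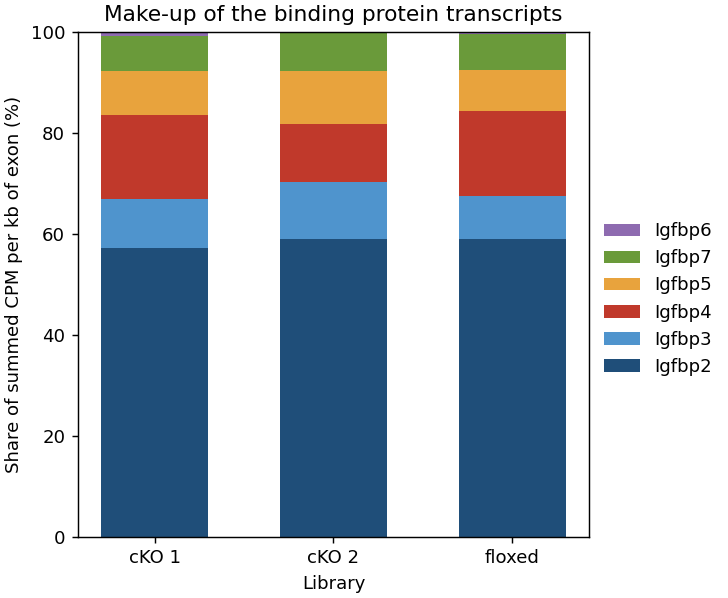
Share of each binding protein gene in the summed level of the 6 genes, in percent of CPM per kilobase of exon, as 1 stacked bar per library. Igfbp2 fills more than any other gene in each bar, and the Igfbp4 segment is 11.4% in cKO 2, against 16.7% in floxed.

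Several cell type markers had the same order of libraries as the split IGF genes, highest in cKO 1 and lowest in cKO 2. This split, higher than floxed in cKO 1 and lower in cKO 2, was that of 24.7% of all genes tested. All 19 genes of meninges and fibroblasts were higher than floxed in cKO 1 and lower in cKO 2, with none at 0. Their sum was 1.58 times that of floxed in cKO 1 and 0.0908 times in cKO 2, a wider span than that of Igf1 (1.79 and 0.581) or Igfbp4 (1.10 and 0.579). Border macrophage genes summed to 132 CPM in cKO 1 and 13.2 CPM in cKO 2, against 89.8 CPM in floxed, with Cd163 at 0 in cKO 2. Genes of pericytes and smooth muscle summed to 372 and 168 CPM in the cKO libraries, against 307 CPM in floxed; all 12 that were tested split in this way, and Tagln was at 0 in cKO 2. Endothelial genes summed to 583 and 310.0 CPM, against 502 CPM in floxed, 17 of 21 splitting this way, and microglial genes to 219 and 129.5 CPM, against 181 CPM in floxed, 11 of 16 splitting. Fewer split with both intervals clear of 1, a pattern of 3.67% of all genes. These were 16 of 19 genes of meninges and fibroblasts and 4 of 7 tested border macrophage genes. They were 7 of 12 genes of pericytes and smooth muscle, 8 of 21 endothelial and 3 of 16 microglial genes. Below floxed in both lay 3 endothelial and 4 microglial genes, and above it in both 1 of each (31.8% and 27.7% of all genes).

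Choroid plexus genes summed to 1156 CPM in cKO 1 and 349.8 CPM in cKO 2, against 1161 CPM in floxed. The sum was the same in cKO 1 and floxed to within counting error (ratio 0.996, interval 0.977 to 1.01). Most of it was Ttr, with 972 and 295 CPM in the cKO libraries, against 996 CPM in floxed. Of the 10 genes tested, 7 were above floxed in cKO 1 and below it in cKO 2 (24.7% of all genes). The other 3 were below floxed in both (31.8% of all genes). Radial glia genes summed to 2628 and 2569 CPM in the cKO libraries, against 1947 CPM in floxed, and 9 of 12 were above floxed in both, 2 below in both. Over all genes tested, 27.7% were above floxed in both and 31.8% below in both. Interneuron and subpallial genes summed to 596 and 589 CPM, against 677 CPM in floxed, and 6 of 10 were below floxed in both and 0 above in both. Erythroid genes summed to 1596 and 1289.6 CPM, against 1752 CPM in floxed, a sum made mostly of the globin genes Hba-a1, Hba-a2 and Hbb-bs, while 6 of 10 were above floxed in both cKO libraries and 3 below in both. Cajal-Retzius genes summed to 284 and 312 CPM, against 267 CPM in floxed, with 6 of 7 above floxed in both. The part of any of these cell types in the levels of the IGF genes was not tested.

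**Figure D4:**
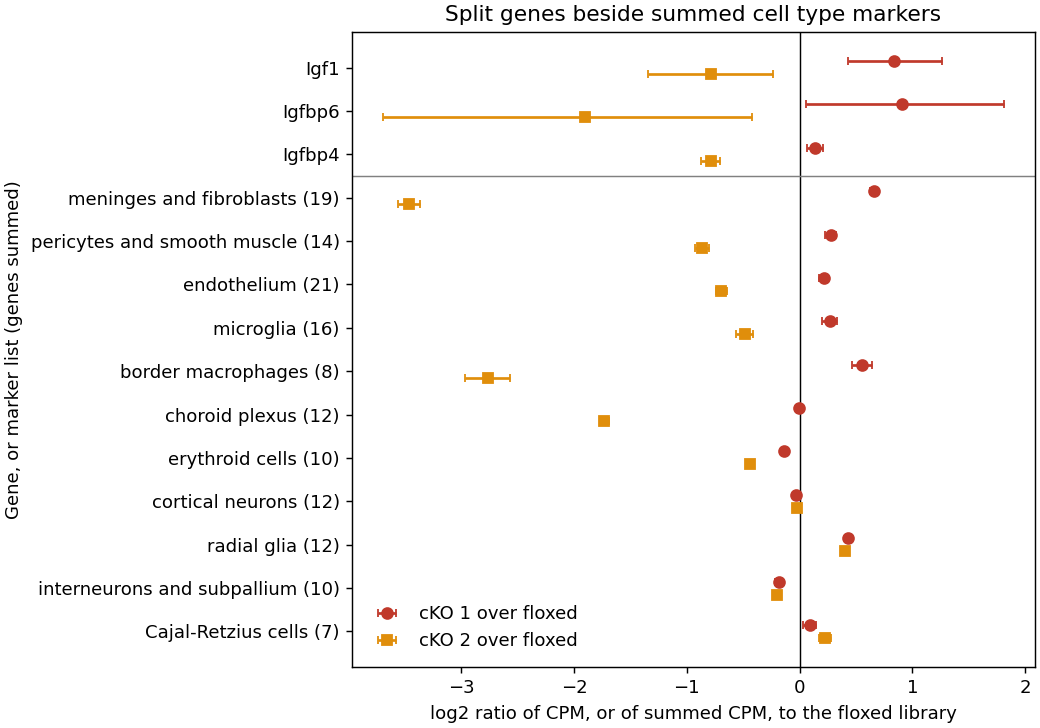
log2 ratio to the floxed library of Igf1, Igfbp6 and Igfbp4 (top) and of the summed CPM of marker lists (below, genes summed in brackets) in cKO 1 and cKO 2, with exact 95% intervals for counting error. The lists from meninges to border macrophages lie right of 0 in cKO 1 and left of 0 in cKO 2, and cortical neuron markers lie near 0 in both.

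Other genes of the pathway were taken from lists by role. Of 18 ligands and extracellular regulators 14 were in both tables and 13 were tested. Of these, 2 were higher than floxed in both cKO libraries, 6 lower in both and 5 higher in cKO 1 and lower in cKO 2. The shares of all genes with these patterns, 27.7%, 31.8% and 24.7%, and 15.8% for the reverse of the last, are also the background of the lists that follow. The median log2 ratios to floxed of the list were 0.03 in cKO 1 and -0.12 in cKO 2. Igf2, the ligand that dominates before birth, had 568 CPM in cKO 1 and 63.6 CPM in cKO 2, against 377 CPM in floxed. Per kilobase of exon it stood at 129 and 44.5 times the level of Igf1 in the cKO libraries, against 153 times in floxed. Its level is uncertain, since 62.8% of its exon bases also belong to the overlapping gene Gm49394. Insrr, the insulin receptor-related receptor, followed the same order, with 68 and 7 counts in the cKO libraries, against 31 in floxed, and was marked significant in both of the authors' deposited tables. The scavenging receptor gene Igf2r had 67.7 and 54.9 CPM, against 59.9 CPM in floxed.

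Igfbpl1, a binding protein-like gene expressed in immature neurons, had 599 CPM in cKO 1 and 687 CPM in cKO 2, against 718 CPM in floxed. Htra1, a serine protease that cleaves binding proteins, had 12.4 and 13.3 CPM, against 17.7 CPM in floxed, below floxed in both libraries beyond counting error (ratios 0.700 and 0.751). Pappa and Pappa2, genes of proteases that cleave binding proteins, differed in direction. Pappa had 35 and 28 counts in the cKO libraries against 16 in floxed, and Pappa2 had 12.3 and 12.5 CPM against 15.3 CPM in floxed. For Pappa the difference in cKO 2 was within counting error (ratio 1.68, interval 0.878 to 3.32). Stc2, which encodes an inhibitor of these proteases, had 4.82 and 3.98 CPM against 5.77 CPM in floxed, within counting error in cKO 1 (interval 0.624 to 1.11). Stc1, of the same list, had 7.63 and 6.73 CPM against 6.84 CPM in floxed. None of the list passed edgeR's test, and the fitted log2 folds were -0.46 (SE 0.25) for Htra1 and 0.88 (SE 0.65) for Pappa.

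The lists of genes that act inside the cell spread less around floxed. They were not matched to the other genes for depth, and counting error adds to the spread where counts are few. The extracellular list holds genes of few counts, such as Insrr and Pappa, and the adaptor list holds Irs4. The SD of log2 ratios in cKO 1 and cKO 2 was 0.21 and 0.51 over the adaptors, 0.20 and 0.17 over the PI3K branch and 0.15 and 0.20 over the RAS branch, beside 0.49 and 0.92 over the extracellular list and 0.47 and 0.71 over all genes. Of 21 adaptors and brakes, 3 were higher than floxed in both cKO libraries, 6 were lower in both, 5 were above floxed in cKO 1 but below it in cKO 2, and 7 showed the reverse. Of 32 genes of the PI3K, AKT, mTOR and FOXO branch, 6 were higher in both, 12 lower in both, 7 above it in cKO 1 but below it in cKO 2, and 7 the reverse. Of 17 genes of the RAS and MAPK branch the numbers were 4, 7, 4 and 2 in the same order. The median log2 ratios in cKO 1 and cKO 2 were -0.05 and -0.02 for the adaptors, -0.06 and -0.05 for the PI3K branch, and -0.00 and -0.09 for the RAS branch. No gene of these lists passed edgeR's test at an adjusted p under 0.05, and DESeq2 called 0. At an unadjusted p under 0.05 edgeR gave 0 of 21 adaptors, 1 of 32 genes of the PI3K branch and 1 of 17 of the RAS branch, beside the 1.53% of all genes.

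Among the adaptors, Gab2 (63.9 and 48.1 CPM, against 71.1 CPM in floxed) and the phosphatase gene Ptpn11 (145 and 132 CPM, against 159 CPM in floxed) were lower in both cKO libraries. Socs2, a feedback inhibitor of growth hormone signalling, was slightly higher in both (70.2 and 68.8 CPM, against 62.6 CPM in floxed). Irs1 and Irs4, which encode substrates of the receptors and were singled out after their values were seen, had the widest ratios of the adaptor list in cKO 2. Irs1 had 106 counts in cKO 1 and 39 in cKO 2, against 100 in floxed, and Irs4 had 12 and 26 counts, against 9 in floxed. The translation repressor gene Eif4ebp1 (7.28 and 6.03 CPM, against 5.38 CPM in floxed) and the S6 kinase gene Rps6kb1 (54.6 and 48.3 CPM, against 44.2 CPM in floxed), both downstream of mTOR, were higher in both. The genes of the FOXO factors differed. Foxo1 was 19.8 and 12.8 CPM, against 15.6 CPM in floxed, and Foxo6 was 108 and 149.5 CPM, against 121 CPM in floxed. Of the genes of IGF2 mRNA-binding proteins, Igf2bp3 had 10.2 and 7.96 CPM, against 12.1 CPM in floxed, while Igf2bp1 had 61.0 and 64.6 CPM, against 58.6 CPM in floxed, and Igf2bp2 59.2 and 56.0 CPM, against 56.4 CPM in floxed.

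**Figure D5:**
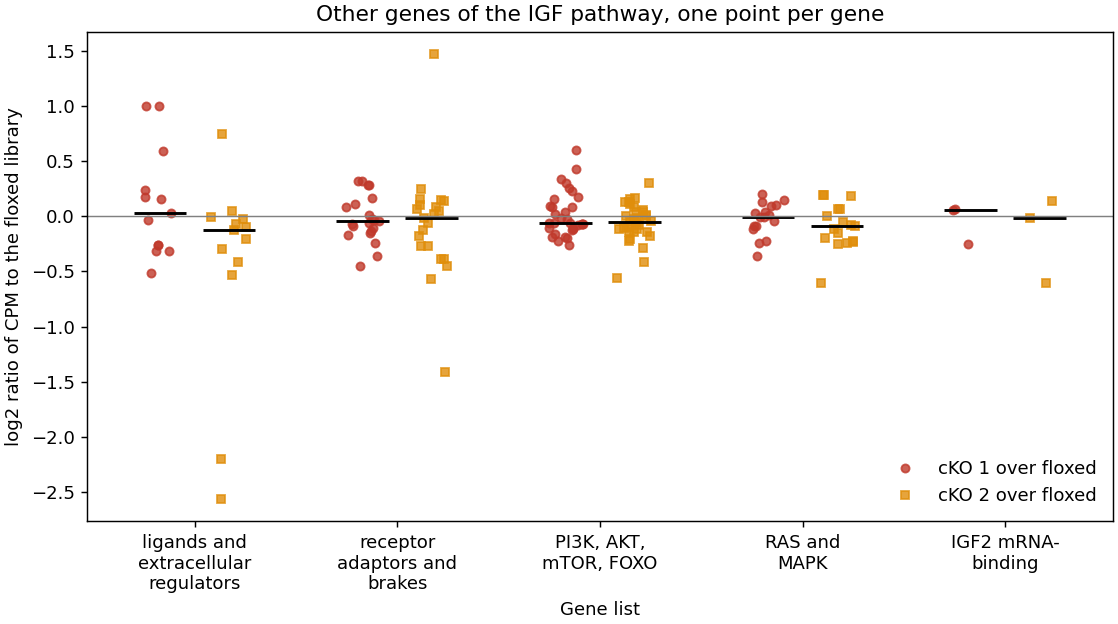
log2 ratio of CPM in cKO 1 and in cKO 2 to the floxed library for genes of the pathway outside the 9, 1 point per tested gene, with black bars for medians. Most points of the 3 lists of adaptors and kinases lie near 0, and the lowest point, at -2.57 in cKO 2, is Igf2.

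The genes most like Igf1 were sought among 11553 genes with a mean of at least 5 CPM, by the distance between their pairs of log2 ratios to floxed, which rests on 3 libraries. Among those nearest to Igf1 (0.84 and -0.78) were Angptl4 (0.72 and -0.76), an inhibitor of lipoprotein lipase, and the iron exporter gene Slc40a1 (0.71 and -0.82). Nearest to Igfbp6 (0.91 and -1.91) were the matrix protein gene Tgfbi (0.92 and -2.00), the transporter gene Abca9 (0.99 and -1.96) and the connexin gene Gja1 (0.72 and -1.86). Those nearest to Igfbp4 (0.14 and -0.79) were Fhl3 (0.15 and -0.81), Il4ra (0.15 and -0.81) and Arap1 (0.12 and -0.80). Around Igfbp3 (0.31 and 0.13) lay the mitotic cyclin gene Ccnb1 (0.31 and 0.13) and Rps6kb1 (0.30 and 0.13). Their distances, 0.0032 and 0.0047, were smaller than the counting error of the Igfbp3 ratios (interval 1.14 to 1.34 in cKO 1). Other genes may be as near within that error, and no link between these genes was tested.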

How the data were processed

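RNA-seq read counts of mouse embryonic cortex were used. Each table the authors deposited holds raw counts and normalized values of a cKO library beside the same floxed library, whose counts were identical for all 19968 shared genes. Libraries were assigned to groups by KO or WT in the column names. Bowtie2 2.2.3, TopHat2 2.0.12 and HTSeq 0.6.0, and the build mm9, are named per the submitters' processing notes. Of 21767 genes in the deposited tables, 19557 had the same start and end in GENCODE M21 (GRCm38) and 21690 an overlapping position, so coordinates are called GRCm38. The deposited normalized values were CPM, counts divided by a library total with 0 replaced by 0.5, and this total was used for all scaling here. The authors' log2 folds and adjusted p-values, deposited in the same tables, compare 1 library with 1 library by a test not given in the sources used here.

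The test on counts was that of edgeR 4.0.16 under R 4.3.3 (default filter, minimum count 10; quasi-likelihood test of 2 cKO libraries against 1 floxed library; Benjamini-Hochberg adjustment over 16725 genes). This leaves 1 residual degree of freedom, and the lone floxed library is assumed to vary like the cKO libraries. The SE of a log2 fold was its size over the square root of F. Ratios between 2 libraries carry 95% intervals (exact Clopper-Pearson, on the share of reads from the first library) and levels exact Poisson ones; without molecular identifiers these cover counting error only. Levels per kilobase used the union of GENCODE exons. Alternatives were TMM factors, DESeq2 1.42.0, no filter, genes of either table, other fold thresholds, another length and leaving out a cKO library. Named genes were the 9 IGF genes and, in the other lists, those of at least 5 CPM with the largest shared ratio in a direction or the widest split, up to 3 each; ligands and extracellular regulators could all be named. The genes, lists and rules were chosen with earlier results of these data known. Some genes that these rules name are not reported here.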

Additional observations from a re-analysis of the deposited data

How the results depend on the processing

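No test called any of the 9 IGF genes or of the pathway lists under TMM factors, DESeq2, no filter on low counts or genes of either table. Over all genes edgeR called 1 gene (Ptx3), 0 with TMM factors, 0 with no filter and 5 by DESeq2. At 2-fold in place of 1.5-fold, 0 IGF genes were higher than floxed in cKO 1 (2.58% of all genes) and 1 was lower in cKO 2 (7.80%), and at a threshold of 0.32 on the log2 scale 5 were higher in cKO 1 than in cKO 2 (23.4%). Leaving out a cKO library leaves a value with no test, which is that of the other cKO library. Without cKO 1 the log2 fold turned to -0.78 for Igf1, -0.18 for Insr, -1.91 for Igfbp6 and -0.14 for Igfbp7, and without cKO 2 to 0.10 for Igfbp2 and 0.14 for Igfbp4. Without cKO 2 the log2 folds were 0.84, 0.19, 0.91 and 0.15 for the first 4, and without cKO 1 they were -0.24 and -0.79 for the last 2. Igf1r, Igfbp3 and Igfbp5 kept their direction. Other scalings shifted log2 ratios by -0.0536 to 0.0437 and reversed none of the 27 ratios of the 9 genes. No paired analysis was possible because the groups share no replicate number in the labels and the floxed group has 1 library. Depth limits Igfbp6, with 5 counts in cKO 2, and Igf1, with 46.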
